A study of Mus musculus with 8 samples.

Results

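The genes of the voltage-gated sodium and calcium channels were followed in mouse medial prefrontal cortex (mPFC), in RNA on ribosomes of cells that project to VTA or NAC and in the unpurified RNA of the same tissue. A gene was included when a probe set of the array carried exactly 1 gene symbol and that symbol belonged to the Cacna, Cacnb or Cacng families or to the numbered Scn genes for alpha and beta subunits. This gave 36 genes with 39 probe sets, out of 22180 named genes and 41345 probe sets. Where a gene had several probe sets, the one with the highest mean over the 8 arrays stood for it. Each level below is a log2 value minus the median of that array over the named genes, so 0 is the middle of the array and a difference of 1 is a doubling of signal. Levels are compared between groups for 1 probe set at a time and never between genes.

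There were 4 groups of 2 arrays each. All mice carried a ribosome tag of green fluorescent protein (GFP) that Cre recombinase switches on, and all received CAV2-Cre, a canine adenovirus carrying Cre that axon terminals take up. The VTA pull-down held RNA caught with GFP-trap, a reagent that binds the tag, from mPFC after virus in VTA, and the NAC pull-down held the same after virus in NAC. The VTA input and the NAC input held mPFC RNA before the pull-down, with the same tag and virus. By common usage VTA and NAC stand for the ventral tegmental area and the nucleus accumbens. The labels give no strain, age, sex or promoter of the tag. The input holds every cell type of the tissue, and untagged RNA may remain in a pull-down. The labels do not trace the arrays to animals, so each p-value rests on how far arrays of a group lay apart, which may be technical spread. That spread was pooled over the 4 groups and drawn toward that of the other tested genes. Only 2 arrays a group limit the precision of every value.

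Sodium channels are built from a pore-forming alpha subunit and auxiliary beta subunits, and their fast opening carries the rising phase of the action potential. Calcium channels have a pore-forming alpha1 subunit with an extracellular alpha2delta and an intracellular beta subunit. The Cav1 (L-type) pores couple depolarisation to signalling in the soma and dendrites, the Cav2 (P/Q-, N- and R-type) pores trigger transmitter release, and the Cav3 (T-type) pores open near rest and support burst firing. Most brain gamma subunits are transmembrane AMPA receptor regulatory proteins (TARPs), which bring AMPA-type glutamate receptors to the synapse and slow their closing, rather than parts of calcium channels.

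Arrays correlated at r = 0.981 to 0.991 within groups (4 pairs) and at 0.973 to 0.988 between groups (24 pairs) over all probe sets, which are not independent replicates. A gene was tested where it lay above the array median on at least 2 of 8 arrays, which 11712 genes did. In limma's fit over these genes, a difference was called at an adjusted p (Benjamini-Hochberg) under 0.05. In the pull-downs of both targets against their inputs, the calls were lower for 8 of 9 oligodendrocyte markers (median log2 difference -0.42), 5 of 7 precursor markers (-0.39), 4 of 7 astrocyte markers (-0.38), 8 of 9 microglial markers (-0.51), 4 of 6 endothelial markers (-0.30), 4 of 6 mural and fibroblast markers (-0.36) and 5 of 10 interneuron markers (-0.25), with none higher. The background over all tested genes was 21.9% lower and 13.0% higher, with a median of -0.05. Of 6 tested markers of glutamatergic cortical neurons 2 were higher and none lower over both targets, with a median of 0.12. By target, 1 was higher in NAC (median 0.16) and 0 in VTA (median 0.001), against 4.79% and 7.35% of all genes. Camk2a (-0.17) and Tbr1 (-0.18) had negative differences over both targets without a call, and the other tested markers had positive ones. Interneuron markers had a mean level of 2.17 to 2.30 on the VTA pull-downs and 2.02 to 2.05 on the NAC pull-downs, against 2.38 to 2.48 on the VTA inputs and 2.39 to 2.42 on the NAC inputs. For microglial markers it was 1.87 to 1.95 and 2.15 to 2.22 on the VTA and NAC pull-downs, against 2.24 to 2.30 and 2.70 to 2.72 on the VTA and NAC inputs. The part of these markers in the channel genes' differences from input was not tested. In bulk RNA of this kind, fewer cells of a type and less RNA per cell cannot be told apart.

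Of the 36 channel genes, 28 could be tested. The 8 others lay under the array median on every array and are given without a test. They were Scn9a (-1.57 to -0.68), Scn10a (-2.24 to -1.71) and Scn11a (-2.65 to -2.12), the sodium pores of sensory neurons, and Cacna1s (-0.49 to -0.21) and Cacna1f (-1.30 to -0.55), the L-type pores of skeletal muscle and photoreceptors. The others were Cacna2d4 (-1.14 to -0.39), an alpha2delta subunit of the retina, Cacng1 (-1.28 to -0.40), the muscle gamma subunit, and Cacng6 (-0.80 to -0.19), its close relative. The 28 tested genes held 5 sodium alpha, 3 sodium beta, 2 Cav1, 3 Cav2, 3 Cav3, 3 alpha2delta, 3 beta and 6 gamma subunits. All of them lay above the median on all 8 arrays except Scn7a, which did so on 3.

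In the pull-downs of both targets against the inputs, 7 of 28 channel genes (25.0%) were called, against 34.9% of all tested genes. The 3 higher genes were Scn2b, Cacng8 and Cacnb1, and the 4 lower ones were Cacna1d, Scn3a, Cacnb2 and Cacng5. The background was 13.0% of genes higher and 21.9% lower. The median difference of the channel genes was -0.06 and that of all genes -0.05, and 5 channel genes (17.9%) had a positive difference against 41.9% of all genes. All 4 pull-downs lay above all 4 inputs for 2 channel genes and below for 6, against 29.1% of all genes that separated in either way (11.8% above and 17.4% below). On the values as deposited 11 channel genes were called, against 41.5% of all genes. The share of channel genes called was no larger than the background, and a shift of the families as a whole was not tested.

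The voltage-gated sodium channel beta subunit gene Scn2b stands next to Scn4b on chromosome 9, with no protein-coding gene between them in the RefSeq annotation of GRCm38.p6, and only Scn2b was called in the pull-downs. Both encode beta subunits that link to the pore by a disulphide bond. The RefSeq windows around their starts, 250 bases before to 50 after, are shown because the neighbours differ in base composition, with each CG dinucleotide in capitals. Scn2b lies on the plus strand at chr9:45117626-45117925 and Scn4b on the plus strand at chr9:45138374-45138673.
Scn2b: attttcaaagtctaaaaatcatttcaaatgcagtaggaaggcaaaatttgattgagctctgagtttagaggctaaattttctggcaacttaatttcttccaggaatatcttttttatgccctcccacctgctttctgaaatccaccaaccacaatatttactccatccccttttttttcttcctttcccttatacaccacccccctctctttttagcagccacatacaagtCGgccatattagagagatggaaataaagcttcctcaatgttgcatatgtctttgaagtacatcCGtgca
Scn4b: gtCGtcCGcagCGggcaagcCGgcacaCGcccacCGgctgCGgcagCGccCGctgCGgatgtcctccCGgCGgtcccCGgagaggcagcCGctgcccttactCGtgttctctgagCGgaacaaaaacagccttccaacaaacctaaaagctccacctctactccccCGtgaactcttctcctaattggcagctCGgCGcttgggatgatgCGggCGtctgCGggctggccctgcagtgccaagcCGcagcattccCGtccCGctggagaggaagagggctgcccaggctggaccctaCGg
The Scn2b window holds 2 CG dinucleotides and 38.3% G and C bases, and 23.3% of 32851 mouse windows of the same length hold as few or fewer. The Scn4b window holds 26 CG dinucleotides and 66.3% G and C bases, and 16.9% of windows hold as many or more. The median window holds 7. These letters are a description, and no deposited value bears on either promoter.

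Scn2b was the only sodium channel gene called higher in the pull-downs. It lay at 4.69 and 4.74 on the VTA pull-downs and at 4.62 and 4.52 on the NAC pull-downs, against 4.36 and 4.36 on the VTA inputs and 4.36 and 4.35 on the NAC inputs. Every pull-down lay above every input. The log2 difference over both targets was 0.28 (SE 0.07, limma adjusted p = 0.0094), a 1.22-fold higher signal, and it stayed called under all 17 alternatives tried, with differences of 0.22 to 0.36. In VTA alone it was 0.35 (SE 0.10, adjusted p = 0.0254), and in NAC alone 0.21, which was not called (adjusted p = 0.171). The VTA call was lost without the first VTA input (adjusted p = 0.132), the second VTA input (0.0938), the first VTA pull-down (0.0531) or the second (0.0536), and also without a filter (0.0723) or with only the VTA groups in the fit (0.0598).

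Scn4b, whose product also promotes the resurgent current that follows a spike, behaved otherwise. It lay at 1.29 and 1.57 on the VTA pull-downs and 1.27 and 1.06 on the NAC pull-downs, against 1.29 and 1.26 on the VTA inputs and 1.40 and 1.45 on the NAC inputs. The NAC pull-downs lay below the NAC inputs and the VTA pull-downs overlapped the VTA inputs. Neither the difference over both targets (-0.05, 95% interval -0.24 to 0.13) nor that between the pull-downs (0.26, 95% interval 0.00 to 0.53, limma adjusted p = 0.34) was called. Scn3b, a non-covalently attached beta subunit, ranged from 3.79 to 4.17 on the 8 arrays. All 4 pull-downs of Scn3b lay below all 4 inputs, but its difference of -0.15 was not called on this scale (limma adjusted p = 0.138), and on the values as deposited it was called at -0.21 (adjusted p = 0.0364). Whether Scn2b and its neighbour differ from each other in their change was not tested.

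Among the sodium pores, Scn3a, the form most abundant before birth, fell in the pull-downs. It lay at 1.73 and 1.84 on the VTA pull-downs and 1.65 and 1.498 on the NAC pull-downs, against 1.94 and 1.94 on the VTA inputs and 1.87 and 1.92 on the NAC inputs. Every pull-down lay below every input. The difference was -0.24 (SE 0.07, limma adjusted p = 0.024). Leaving out 1 array ended the call for the second NAC pull-down (adjusted p = 0.0981), the first VTA pull-down (0.0533), the first NAC input (0.0622), the second NAC input (0.0766), the first VTA input (0.069) and the second VTA input (0.0635). Centring on the tested genes (adjusted p = 0.0523) and the lack of a filter (0.0707) did so too. In both targets the direction was the same, with -0.16 in VTA and -0.32 in NAC, and neither was called alone. The NAC difference was called on the values as deposited (-0.35, adjusted p = 0.0402), with quantile normalization (-0.28, 0.0495) and with the stricter filter (0.0346).

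Scn2a and Scn8a were not called in any comparison. Scn2a, the main pore of excitatory cortical neurons and the neighbour of Scn3a on chromosome 2, lay at 4.59 and 4.76 on the VTA pull-downs and 4.76 and 4.69 on the NAC pull-downs, against 4.89 and 4.85 on the VTA inputs and 4.89 and 4.77 on the NAC inputs. The pull-downs lay below the inputs by a difference of -0.15 that was not called (limma adjusted p = 0.131), and that was called on the values as deposited (-0.21, adjusted p = 0.0388). Scn8a, the pore that sets spike threshold at the axon initial segment, lay at 4.21 and 4.24 on the VTA pull-downs and 4.12 and 4.09 on the NAC pull-downs, against 4.23 and 4.28 on the VTA inputs and 4.09 and 4.16 on the NAC inputs. Its pull-downs overlapped its inputs, and the 95% interval of the difference ran from -0.17 to 0.12.

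Scn1a, the pore best known from parvalbumin interneurons but also present in layer 5 pyramidal cells, lay higher on both VTA pull-downs than on both NAC pull-downs without reaching a call. It lay at 3.28 and 2.996 on the VTA pull-downs and 2.77 and 2.72 on the NAC pull-downs, against 3.05 and 3.06 on the VTA inputs and 3.08 and 3.06 on the NAC inputs. The NAC pull-downs were lower than every other array. VTA minus NAC was 0.39 in the pull-downs (SE 0.11, 95% interval 0.15 to 0.63, limma adjusted p = 0.11) and -0.01 in the inputs. The difference between pull-downs was called without the second VTA pull-down (0.53, adjusted p = 0.0299) or with a variance trend and robust moderation (adjusted p = 0.0302). In NAC the log2 difference of pull-down minus input was -0.32 and not called (adjusted p = 0.0844).

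Scn7a, which encodes a sodium channel relative found in glia and peripheral tissue and opened by sodium rather than voltage, lay near the array median. Its levels were -0.54 and -0.27 on the VTA pull-downs and 0.32 and -0.09 on the NAC pull-downs, against 0.47 and 0.02 on the VTA inputs and 0.00 and -0.13 on the NAC inputs. The VTA pull-downs were the lowest arrays, and arrays of 1 group lay far apart. In VTA the difference was -0.64 (SE 0.17). Scn7a entered the fit only because both VTA inputs and 1 NAC pull-down lay above the median, so its call in limma (adjusted p = 0.0225) was favoured by the filter and is given as a description. The call was lost without a filter (adjusted p = 0.0712), without the first VTA input (-0.42, adjusted p = 0.21) and without the first VTA pull-down (adjusted p = 0.121), the stricter filter left the gene out, and a level near the array median leaves the size of the difference uncertain.

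**Figure D1:**
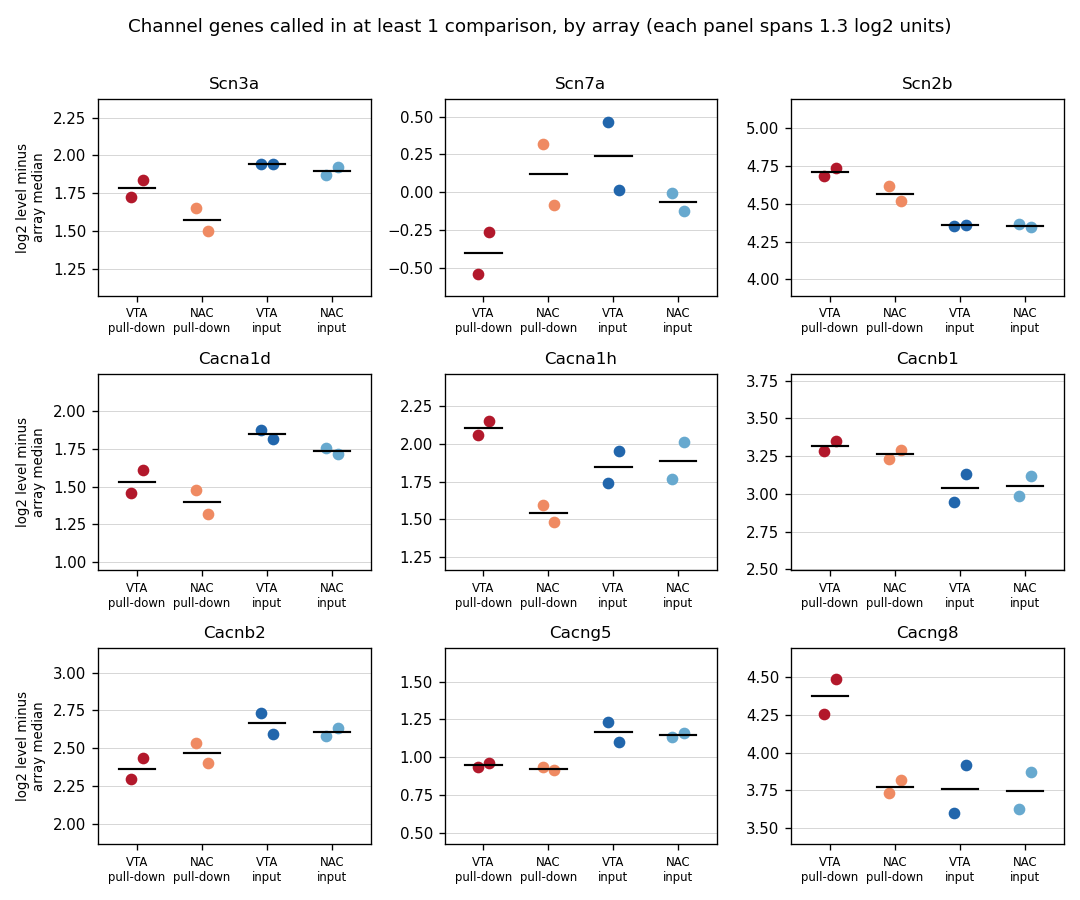
Log2 level minus the array median for the 9 channel genes called in at least 1 comparison, 1 panel a gene, with 1 point per array, a bar at each group mean and the same span on every vertical axis. Scn2b and Cacnb1 lie higher on all 4 pull-downs than on any input, Cacna1d, Scn3a, Cacnb2 and Cacng5 lie lower on all 4, and Cacng8 and Cacna1h are highest on the VTA pull-downs.

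Of the L-type pores, Cacna1d fell in the pull-downs. This pore opens at lower voltage than its relative Cacna1c and is known for pacemaking. It lay at 1.46 and 1.61 on the VTA pull-downs and 1.48 and 1.32 on the NAC pull-downs, against 1.88 and 1.82 on the VTA inputs and 1.75 and 1.72 on the NAC inputs. Every pull-down lay below every input. The difference was -0.32 (SE 0.07, limma adjusted p = 0.00762), with -0.31 in VTA and -0.33 in NAC, and it stayed called over both targets under all 17 alternatives, at -0.38 to -0.25. Neither target alone was called on this scale (adjusted p = 0.0531 in VTA and 0.0646 in NAC), and both were on the values as deposited (-0.40, adjusted p = 0.0171, in VTA and -0.37, adjusted p = 0.044, in NAC).

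Cacna1c, the main L-type pore of forebrain neurons and the one tied to activity-dependent transcription, was not called. It lay at 2.73 and 2.87 on the VTA pull-downs and 2.75 and 2.77 on the NAC pull-downs, against 2.902 and 2.86 on the VTA inputs and 2.79 and 2.901 on the NAC inputs. Its NAC pull-downs lay below its NAC inputs and its VTA pull-downs overlapped the VTA inputs. The difference over both targets was -0.08, with a 95% interval of -0.24 to 0.08 that overlaps that of Cacna1d (-0.49 to -0.16), and a difference between the genes was not tested.

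None of the 3 Cav2 pores was called in any of the 6 comparisons. Cacna1a, the P/Q-type pore, lay at 3.602 and 3.66 on the VTA pull-downs and 3.59 and 3.71 on the NAC pull-downs, against 3.70 and 3.71 on the VTA inputs and 3.51 and 3.83 on the NAC inputs. Its pull-downs fell within the spread of the inputs. Cacna1b, the N-type pore, lay at 3.21 and 2.98 on the VTA pull-downs and 3.003 and 2.99 on the NAC pull-downs, against 3.27 and 3.34 on the VTA inputs and 3.12 and 3.17 on the NAC inputs. In each target the pull-downs lay under the inputs. Its difference of -0.18 missed the threshold (limma adjusted p = 0.0842) and met it on the values as deposited (-0.24, adjusted p = 0.0267). Cacna1e, the R-type pore of dendrites and spines, lay at 3.56 and 3.59 on the VTA pull-downs and 3.38 and 3.40 on the NAC pull-downs, against 3.62 and 3.77 on the VTA inputs and 3.54 and 3.63 on the NAC inputs. Within each target its pull-downs lay under their inputs, with a difference over both of -0.16 (adjusted p = 0.106) that was called on the values as deposited (-0.22, adjusted p = 0.0227).

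The T-type pore Cacna1h was the only pore gene of either family called between the targets. It lay at 2.06 and 2.15 on the VTA pull-downs and 1.60 and 1.48 on the NAC pull-downs, against 1.74 and 1.96 on the VTA inputs and 1.77 and 2.01 on the NAC inputs. The VTA pull-downs were the highest arrays and the NAC pull-downs the lowest, with all inputs between them. VTA minus NAC was 0.56 in the pull-downs (SE 0.12, 95% interval 0.30 to 0.83, limma adjusted p = 0.0323), a 1.48-fold higher signal, and -0.04 in the inputs. Against the inputs the VTA pull-downs stood at 0.26 and the NAC pull-downs at -0.35, neither called on this scale. The test of that difference of enrichment gave 0.60 (SE 0.17), which did not pass (limma adjusted p = 0.334).

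The Cacna1h call between pull-downs rests on few arrays. Dropping 1 array ended it for each VTA pull-down (adjusted p = 0.0614 for the first and 0.092 for the second), each NAC pull-down (0.0768 and 0.165) and either VTA input (0.0543), while the difference stayed at 0.51 to 0.62 over all 18 alternatives in limma. The inputs enter this comparison only through the shared estimate of spread. Without a filter on low genes its adjusted p was 0.159, and with only the pull-downs in the fit 0.0882.

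The other T-type pores were not called in any comparison. Cacna1g lay at 2.17 and 2.35 on the VTA pull-downs and 2.04 and 2.10 on the NAC pull-downs, against 2.21 and 2.27 on the VTA inputs and 2.07 and 2.17 on the NAC inputs. Its VTA pull-downs lay above its NAC pull-downs, by 0.19 (limma adjusted p = 0.44), and the inputs were ordered the same way (0.12). Cacna1i, a slowly inactivating T-type pore, lay at 2.79 and 2.897 on the VTA pull-downs and 2.82 and 2.77 on the NAC pull-downs, against 2.74 and 2.88 on the VTA inputs and 2.74 and 2.79 on the NAC inputs. Its groups overlapped throughout, with a 95% interval of -0.17 to 0.27 between the pull-downs.

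None of the 3 tested alpha2delta genes, whose products carry calcium channels to the membrane, was called. Cacna2d1, a gabapentin-binding form, ranged from 3.39 to 3.67 on the 8 arrays, Cacna2d2 from 1.85 to 2.29 and Cacna2d3 from 2.53 to 3.03. For Cacna2d2 and Cacna2d3 both VTA pull-downs lay above both NAC pull-downs, by 0.28 and 0.29 (limma adjusted p = 0.256 and 0.229), and for Cacna2d1 they overlapped. The VTA inputs of Cacna2d3 also lay above its NAC inputs, by 0.19, while those of Cacna2d2 overlapped.

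The beta subunits, which bind the pore inside the cell and set its surface level and kinetics, moved in opposite directions. Cacnb1 lay at 3.28 and 3.35 on the VTA pull-downs and 3.23 and 3.29 on the NAC pull-downs, against 2.95 and 3.13 on the VTA inputs and 2.99 and 3.12 on the NAC inputs. Every pull-down lay above every input, by 0.24 (SE 0.08, limma adjusted p = 0.0275), a 1.18-fold higher signal. That call was over both targets. Alone, neither VTA (0.28, limma adjusted p = 0.0803) nor NAC (0.21, 0.222) was called. The call was lost without the second NAC pull-down (adjusted p = 0.084), the first NAC input (0.11) or the first VTA input (0.109), and without a filter (0.0776).

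Cacnb2 lay at 2.29 and 2.43 on the VTA pull-downs and 2.53 and 2.40 on the NAC pull-downs, against 2.73 and 2.59 on the VTA inputs and 2.58 and 2.63 on the NAC inputs. Every pull-down lay below every input, by -0.22 on the log2 scale (SE 0.08, limma adjusted p = 0.0408). Alone, neither VTA (-0.30, limma adjusted p = 0.0631) nor NAC (-0.14, 0.412) was called. The call over both targets was the least stable of the calls, kept under 6 of 17 alternatives. Leaving out the second NAC pull-down (adjusted p = 0.142), the first VTA pull-down (0.094), the first NAC input (0.0894), the second NAC input (0.114), the first VTA input (0.139) or the second VTA input (0.0539) ended it. So did the lack of a filter (0.10), centring on the tested genes (0.107), quantile normalization (0.0721), and averaging in its second probe set (-0.03, 0.878), which lay at -1.89 to -0.82 and under the filter.

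Cacnb4, the most widespread neuronal beta subunit, ranged from 3.04 to 3.17 on the 8 arrays and did not separate pull-downs from inputs (-0.01, 95% interval -0.16 to 0.14). A second Cacnb4 probe set, with levels of -0.16 to 1.40, gave a different picture with 0.70 (limma adjusted p = 0.0347). These probe sets disagree, and the dimmer one varied more between arrays of a group.

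**Figure D2:**
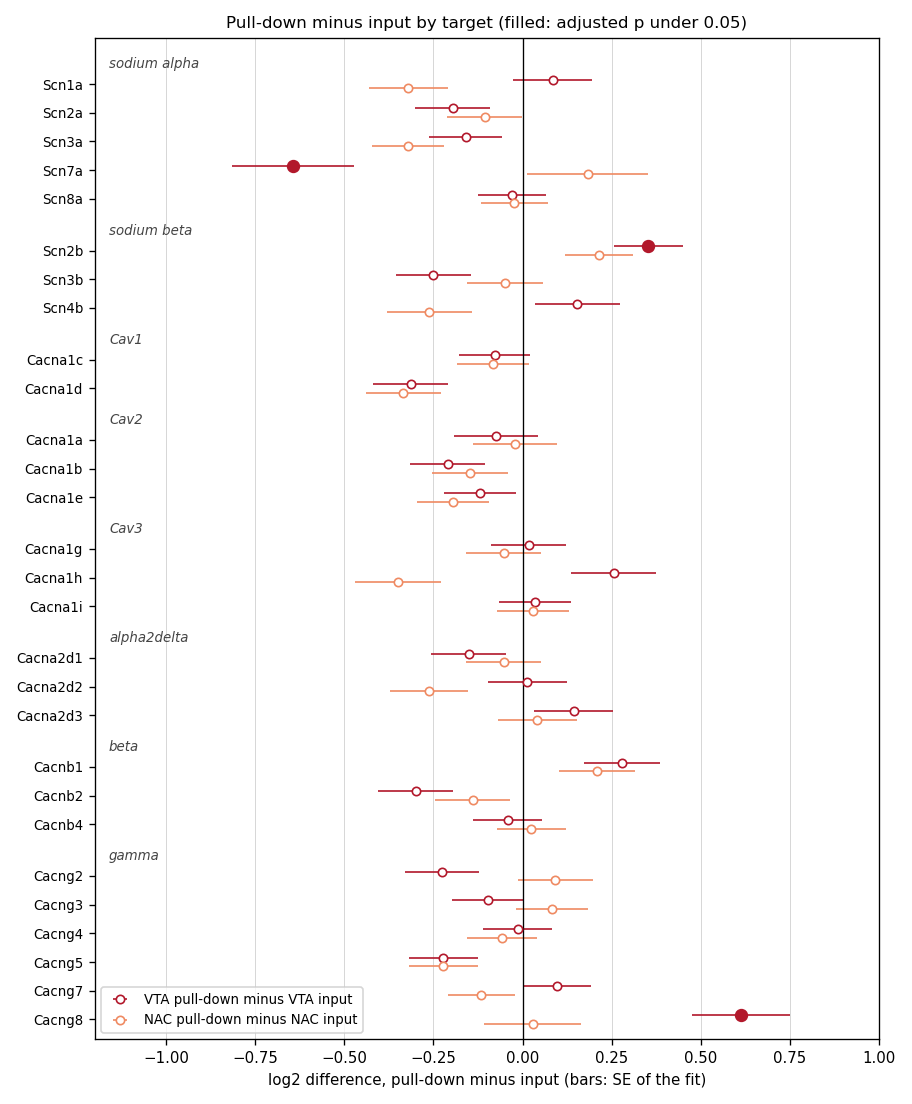
Log2 difference of pull-down minus input for the 28 tested channel genes by subunit class, with 1 row a gene, VTA above NAC in each row, and bars of 1 standard error of the fit. Filled points passed an adjusted p of 0.05, which in VTA were Scn7a, Scn2b and Cacng8 and in NAC none.

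The largest positive difference from input among the 28 genes was that of a gamma gene in VTA. Cacng8, a TARP of forebrain and hippocampal synapses, lay at 4.26 and 4.49 on the VTA pull-downs and 3.73 and 3.82 on the NAC pull-downs, against 3.600 and 3.92 on the VTA inputs and 3.62 and 3.87 on the NAC inputs. The VTA pull-downs stood above all 6 other arrays, while the NAC pull-downs fell within the spread of the inputs. VTA pull-down minus VTA input was 0.61 (SE 0.14, limma adjusted p = 0.0116), a 1.53-fold higher signal, and the same difference in NAC was 0.03 (adjusted p = 0.914). VTA minus NAC was 0.60 in the pull-downs (SE 0.14, 95% interval 0.30 to 0.90, adjusted p = 0.0441), a 1.51-fold higher signal, and 0.01 in the inputs.

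The difference of enrichment of Cacng8 between the targets was 0.58 (SE 0.19) and did not pass (limma adjusted p = 0.38). The called gain over both targets, 0.32 (SE 0.10, adjusted p = 0.0252), averages 0.61 in VTA and 0.03 in NAC. It was lost without the second NAC pull-down (0.0721), the second VTA pull-down (0.0609), the first NAC input (0.107) or the first VTA input (0.113), and without a filter (0.0757). The VTA gain was lost without the first VTA input alone (0.45, adjusted p = 0.129), among 18 alternatives. The call between pull-downs was lost on the values as deposited (adjusted p = 0.0514), without a filter (0.183) and with only the pull-downs in the fit (0.10). Dropping 1 array ended it for the second VTA pull-down (0.141), each NAC pull-down (0.175 and 0.109), either VTA input (0.0579) and either NAC input (0.0594). Its difference stayed between 0.48 and 0.71.

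None of the 5 other gamma genes was called between the targets. Cacng5, which encodes an atypical TARP, fell in both pull-downs. It lay at 0.93 and 0.96 on the VTA pull-downs and 0.93 and 0.91 on the NAC pull-downs, against 1.23 and 1.10 on the VTA inputs and 1.13 and 1.16 on the NAC inputs. Every pull-down lay below every input, by -0.22 (SE 0.07, limma adjusted p = 0.0286), with the same -0.22 in each target. That call was over both targets, and neither target was called alone (limma adjusted p = 0.121 in VTA and 0.162 in NAC). Dropping 1 array ended the call for each NAC pull-down (adjusted p = 0.0562 and 0.083), the first VTA input (0.103) and each NAC input (0.0769 and 0.0826). It was also lost with centring on the tested genes (0.108), quantile normalization (0.0998) or no filter (0.0783).

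Cacng2, stargazin, the first TARP described, lay at 3.93 to 4.33 over the 8 arrays. Both VTA pull-downs of Cacng2 were lower than both NAC pull-downs, by -0.30 (limma adjusted p = 0.197), a direction opposite to that of Cacng8. A second Cacng2 probe set had levels of 0.53 to 1.16. It was lower in pull-downs than in inputs by -0.34 (limma adjusted p = 0.00656), where the brighter one gave -0.07. By target this dimmer probe set gave -0.56 in VTA and -0.11 in NAC, and its VTA inputs lay above its NAC inputs by 0.38 (not called). Between the pull-downs it gave -0.07 (limma adjusted p = 0.791), so the size of the -0.30 rests on the brighter probe set. Cacng3, another TARP of the cortex, ranged from 5.57 to 5.80, Cacng4 from 2.74 to 2.91 and the atypical TARP Cacng7 from 5.36 to 5.56. Cacng7 adjoins Cacng8, which in turn adjoins Cacng6, on chromosome 7 in GRCm38.p6, and the VTA pull-downs of Cacng7, at 5.56 and 5.55, also lay above all 6 other arrays, which ran from 5.36 to 5.50. That order was not called, with 0.17 over the NAC pull-downs (adjusted p = 0.432) and 0.10 over the VTA inputs (adjusted p = 0.473). Cacng4 adjoins Cacng5 on chromosome 11 and was not called in any comparison.

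The TARPs work with the AMPA receptor genes and other auxiliary subunits. Of 11 such genes tested, 1 was higher and 4 were lower in the pull-downs of both targets, against 13.0% and 21.9% of all genes. Cnih2, a cornichon protein that slows AMPA receptor closing, lay at 5.67 and 5.67 on the VTA pull-downs and 5.60 and 5.85 on the NAC pull-downs, against 5.14 and 5.14 on the VTA inputs and 5.32 and 5.43 on the NAC inputs (difference 0.44, limma adjusted p = 0.00215). The lower ones named here were the subunit gene Gria3 (-0.35), the auxiliary gene Gsg1l (-0.35) and the subunit gene Gria1 (-0.28). Between the pull-downs, Cnih3 was lower for VTA, at 3.89 and 4.14 against 4.61 and 4.59 for NAC (difference -0.59, adjusted p = 0.0145). Shisa6, an auxiliary protein that keeps receptors at the synapse, was higher for VTA, at 2.28 and 2.36 against 1.86 and 1.70 for NAC (0.54, adjusted p = 0.0367). Thus 1 of the 11 was called higher and 1 lower between the pull-downs, against 0.726% and 1.72% of all genes. None of the 11 was called between the inputs, against 1.57% of all genes. The VTA inputs of Cnih3, at 4.67 and 4.63, lay above its NAC inputs, at 4.47 and 4.46, the opposite order to its pull-downs. Those of Shisa6 overlapped, at 2.02 and 1.93 for VTA and 1.70 and 1.98 for NAC.

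**Figure D3:**
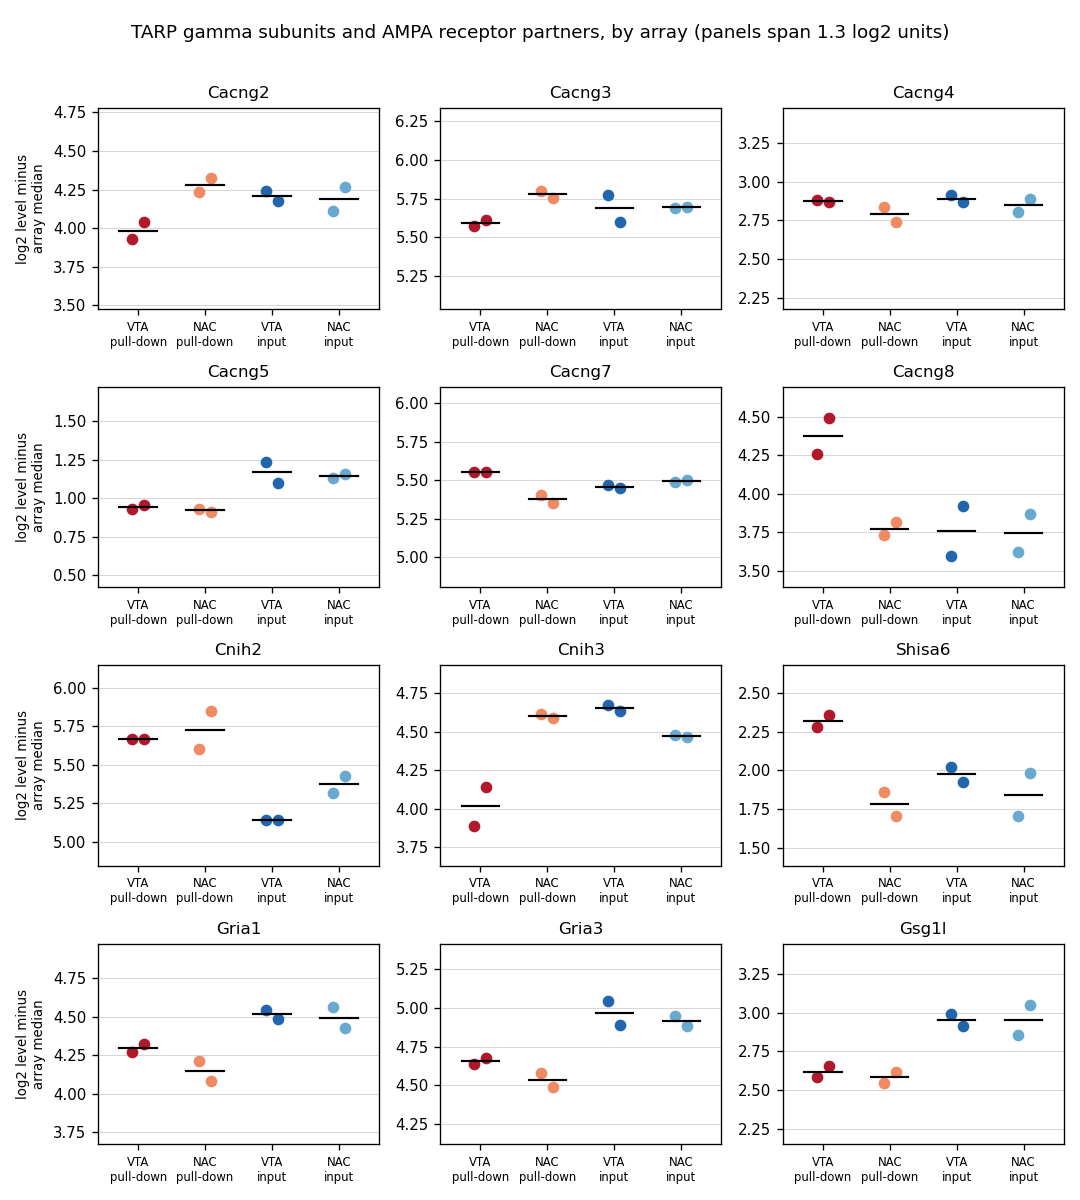
Log2 level minus the array median for the 6 tested gamma genes and 6 AMPA receptor partners, 1 panel a gene, with 1 point per array and a bar at each group mean. Cacng8 and Shisa6 are highest and Cnih3 lowest on the VTA pull-downs, and Cnih2 is higher in both pull-downs than in the inputs.

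Between the VTA and NAC pull-downs as a whole, 2 of 28 channel genes were called, Cacna1h and Cacng8, both higher for VTA, against 2.44% of all tested genes (0.726% higher and 1.72% lower). The differences of the channel genes were positive for 20 of 28 (71.4%), against 50.7% of all genes, with a median of 0.09 against 0.00 for all genes. Between the inputs the tilt ran the same way, with 22 of 28 positive (78.6%) against 65.4% of all genes. Both VTA pull-downs lay above both NAC pull-downs for 14 of 28 channel genes and below for 3 (10.7%), and the same held for 21.2% and 20.6% of all genes, 41.7% together. An unadjusted p under 0.05 was met by 8 (28.6%), against 14.6% of all genes. The 8 include Scn7a, which passed the filter in part through 1 NAC pull-down. Between the inputs limma called 0 of 28 channel genes, against 1.57% of all genes (0.137% higher and 1.43% lower), and 0 had an unadjusted p under 0.05, against 1172 of 11712 genes. Both VTA inputs lay above both NAC inputs for 9 channel genes and below for 2, against 32.7% and 13.1% of all genes, 45.9% together. Differences between the inputs ran from -0.15 for Scn4b to 0.31 for Scn7a.

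Markers of layer 5 pyramidal tract neurons, the cells that send axons to the brainstem and midbrain, separated the same arrays. Of 9 such markers, 7 were called higher and none lower on the VTA than on the NAC pull-downs, with a median difference of 0.76. Pou3f1 (1.03) and Bcl11b (0.77) ran in that direction. Pcp4 went the other way without a call, at 6.41 and 6.45 on the VTA pull-downs and 6.81 and 6.68 on the NAC pull-downs. Over all tested genes 0.726% were higher and 1.72% lower. The mean level of the 9 markers was 3.51 to 3.65 on the VTA pull-downs and 2.95 to 3.01 on the NAC pull-downs. On the VTA inputs it was 3.09 to 3.15 and on the NAC inputs 3.02 to 3.04. Of 10 interneuron markers none was called between the pull-downs in limma, but their median difference was 0.23 higher for VTA. The largest differences were those of Erbb4 (0.36) and Slc32a1 (0.36). Pvalb, the parvalbumin gene, overlapped, at 0.95 and 1.06 on the VTA pull-downs and 1.05 and 1.06 on the NAC pull-downs. The mean level of the 10 markers was 2.17 to 2.30 on the VTA pull-downs and 2.02 to 2.05 on the NAC pull-downs. Microglial markers were lower for 4 of 9 and higher for 1 between the pull-downs, with a median of -0.20. Between the inputs their counts were the same, with a median of -0.36, against 1.43% of all genes lower and 0.137% higher. The part of these cell type markers in the values of Cacna1h, Cacng8 and Scn1a was not tested.

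**Figure D4:**
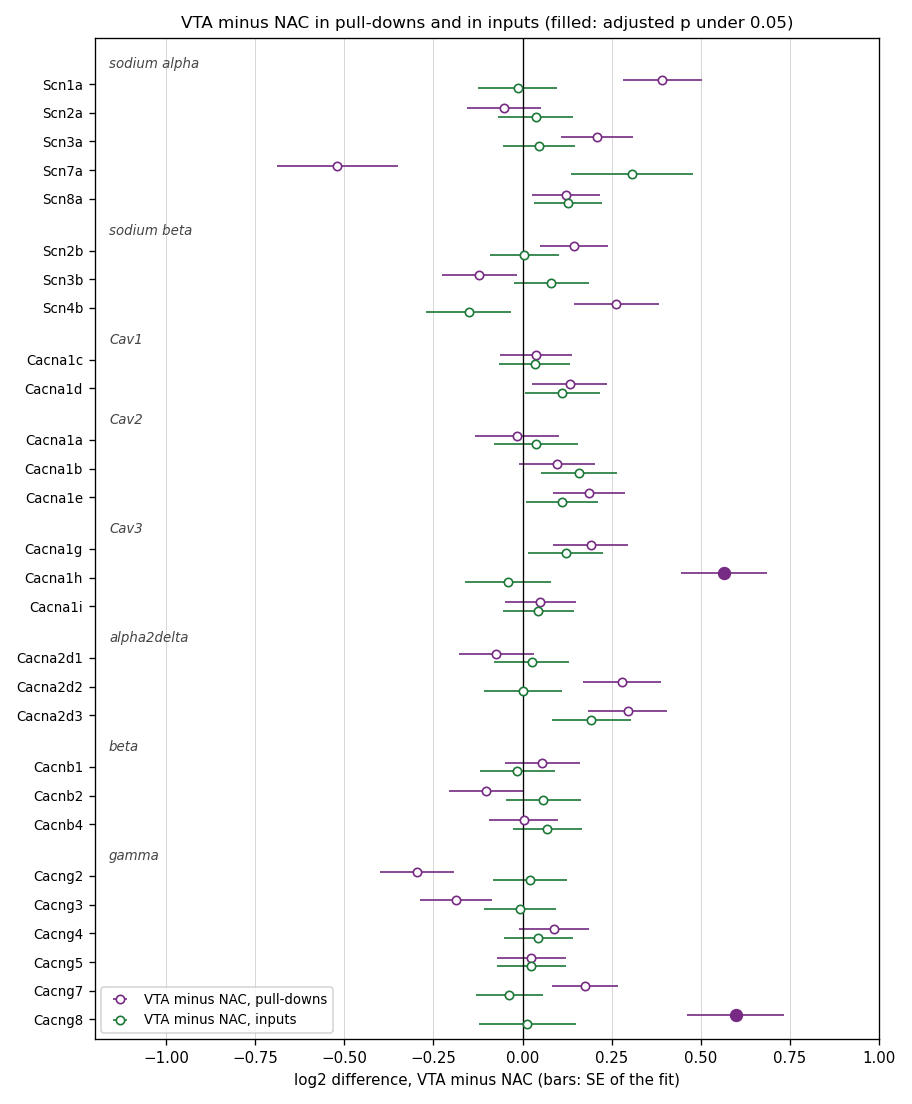
Log2 difference of VTA minus NAC for the 28 tested channel genes by subunit class, with 1 row a gene, the pull-downs above the inputs in each row, and bars of 1 standard error of the fit. Cacna1h and Cacng8 are the filled points, which passed an adjusted p of 0.05, and input differences stay between -0.15 and 0.31.

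Within VTA, 3 of 28 channel genes were called against input, against 22.1% of all genes, and these were Cacng8 and Scn2b higher (7.35% of all genes) and Scn7a, with the limit given above, lower (14.7%). Within NAC limma called 0 of 28, against 10.2% of all genes (4.79% higher and 5.40% lower), and 7 (25.0%) had an unadjusted p under 0.05 against 28.4% of all genes. Those 7 were Cacna1h (-0.35), Cacna1d (-0.33), Scn3a (-0.32), Scn1a (-0.32), Cacna2d2 (-0.26), Cacng5 (-0.22) and Scn2b (0.21). Both pull-downs of a target lay above both its inputs for 5 channel genes and below for 12 in VTA, against 23.5% and 39.9% of all genes, 63.4% together. In NAC they lay above for 3 and below for 14, against 27.1% and 34.3% of all genes, 61.4% together. On the values as deposited, 8 channel genes were called in VTA and 3 in NAC, against 31.3% and 12.3% of all genes on that scale. The test of the difference of enrichment between the targets called 0 of 28 in limma, against 0.0683% of all genes (0.0171% higher and 0.0512% lower). An unadjusted p under 0.05 was met by 5 (17.9%), against 9.5% of all genes. These were Cacna1h (0.60), Cacng8 (0.58), Scn4b (0.41), Scn1a (0.40) and Scn7a (-0.83), the last favoured by the filter as described above. The calls in VTA and their lack in NAC are therefore not shown to differ. Of the 3 genes called in VTA, only Cacng8 was also called between the pull-downs, which compares levels and not enrichment over input.

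The sodium channel works at the axon initial segment, where spikes start, with scaffolds and modulators. Of 15 such partners tested, none was higher and 3 were lower in the pull-downs of both targets, with a median of -0.10. That is no more than the background of 13.0% higher and 21.9% lower over all genes. They were Fgf14 and Fgf11, intracellular factors that bind the sodium pore and shift its inactivation, and Ank2, an ankyrin. Fgf14 lay at 2.72 and 2.77 on the VTA pull-downs and 2.96 and 2.86 on the NAC pull-downs, against 3.24 and 3.21 on the VTA inputs and 3.17 and 3.11 on the NAC inputs. Every pull-down of Fgf14 lay below every input (-0.35, limma adjusted p = 0.00328), and the differences of Fgf11 (-0.44) and Ank2 (-0.21) had adjusted p = 0.00427 and 0.0407.

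The sodium leak channel passes the resting sodium current and is a relative of the families here. Of its 5 tested genes 2 were lower, against 21.9% of all genes. They were the pore gene Nalcn (-0.34, limma adjusted p = 0.0132) and Unc79 (-0.35, adjusted p = 0.00419), a scaffold of the complex. Nalcn lay at 2.35 and 2.68 on the VTA pull-downs and 2.64 and 2.47 on the NAC pull-downs, against 2.91 and 2.97 on the VTA inputs and 2.87 and 2.75 on the NAC inputs. All 4 pull-downs lay below all 4 inputs.

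Of 10 tested partners of calcium channels, 4 were higher in the pull-downs of both targets and 1 was lower, with a median of 0.13, against 13.0% higher and 21.9% lower over all genes. The higher ones included Cabp1 (0.34, limma adjusted p = 0.0146), a calcium-binding protein that replaces calmodulin on the pore, Stac2 (0.34, adjusted p = 0.0115), an adaptor of L-type channels, and Cbarp (0.25, adjusted p = 0.0314), which binds beta subunits and dampens the current. Rims2, an active zone scaffold that tethers Cav2 channels, was lower (-0.24, adjusted p = 0.0244). None of the 10, nor any of the 15 sodium partners or 5 leak channel genes, was called between the VTA and NAC pull-downs or between the inputs. Over all genes 2.44% were called between the pull-downs and 1.57% between the inputs.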

How the data were processed

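RNA of 8 Affymetrix arrays was analysed. The deposited table holds 1 log2 value per probe set and array, made with Transcriptome Analysis Console per the submitters' processing notes. For its version, background correction and normalization, nothing was given in the sources used here. Of 41345 probe sets, 23521 had 1 gene symbol in the platform annotation, 1814 several and 16010 none. Entrez identifiers of 23328 matched the RefSeq table of GRCm38.p6, and no symbol changed. Probe sets with several symbols were not used.

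From the deposited values the array median over 22180 named genes (5.86 to 5.98) was subtracted. In limma 3.58.1 (R 4.3.3), 4 group means were fitted over all 8 arrays (lmFit and eBayes, 4 residual and 7.32 prior degrees of freedom), two-sided, with Benjamini-Hochberg adjustment over 11712 genes in 6 comparisons, several of which share arrays. It was tested on simulated data. All 36 members are named. Values on every array are given for called members and the main pore genes, and from each partner list at most 4 called genes a comparison. Lists covered 9 cell types and 4 partner groups. Members and lists were chosen with earlier results of these data known. Alternatives covered scaling, filter, probe sets, fitted groups, blocks, moderation and each array left out. Arrays carry no read depth.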

Additional observations from a re-analysis of the deposited data

How the results depend on the processing

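The 12 calls (9 genes) were recomputed under 19 alternatives, and of the 208 results 144 stayed called, 64 lost the call and 0 reversed. The 12 include the Scn7a call, which the filter favoured. Channel genes called over both targets, 7 here, numbered 11 on the values as deposited, 4 centred on the tested genes and 2 without a filter. In NAC, 0 here, they numbered 3 as deposited, 1 with quantile normalization, 4 with a stricter filter and 1 with a variance trend and robust moderation. In VTA, 3 here, they numbered 8 as deposited, 5 centred on the tested genes, 1 without a filter, 5 with all probe sets averaged and 7 with the variance trend. Between the pull-downs, 2 here, they numbered 1 as deposited, 0 without a filter, 0 with only the pull-downs fitted and 4 with the variance trend. Leaving out 1 array gave 2 to 7 over both targets, 0 to 3 in NAC, 0 to 5 in VTA, 0 to 1 between the pull-downs, and 0 between the inputs and for the difference of enrichment. A lone array left in a group is assumed to vary like the other groups.

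The median difference of all genes, -0.05 over both targets here, was -0.11 on the values as deposited, 0.03 centred on the tested genes and -0.01 with quantile normalization. Counts over all genes without a filter were 123 in NAC (1194 here), 1448 in VTA (2585), 111 between the pull-downs (286) and 1 for the difference of enrichment (8). Between the pull-downs they were 126 with only those groups fitted and 459 with the variance trend. Between the inputs (184) they were 86 with a stricter filter and 321 with only those groups fitted. For the difference of enrichment they were 2 with quantile normalization, 3 with probe sets averaged and 21 with the variance trend. Leaving out 1 array gave 2405 to 4576 genes over both targets, 180 to 1833 in NAC, 219 to 3041 in VTA, 164 to 328 between the pull-downs, 103 to 227 between the inputs and 1 to 14 for the difference of enrichment. The cause of these shifts was not tested.

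The replicate numbers are shared by all groups. Deviations of same-numbered arrays correlated at 0.30 in NAC, -0.02 in VTA, -0.13 between the pull-downs and 0.22 between the inputs. As these differ in sign and the labels do not trace arrays to animals, pairing by number was used only in alternatives. For Cacng8 the second array lay above the first in each of the 4 groups. The SE of its VTA difference of 0.61 was 0.14 without a block and 0.09 with a block within target, and it stayed called. With a replicate block over all arrays, 7, 0, 3, 2, 0 and 0 channel genes were called in the 6 comparisons, as without it, and 1 gene of all for the difference of enrichment. With a replicate block within target, 6 were called over both targets, Cacnb2 being lost (adjusted p = 0.0531 in limma), and again 1 gene of all for the difference of enrichment. A crossed replicate block of the pull-downs, added after seeing the data, called 2 channel genes and 441 genes of all between them.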
